A study of Macaca mulatta with 4 samples.

Results

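COL21A1-type nuclei are a class of granule cell (GC) nuclei in the late-gestation cerebellum of the rhesus macaque, and their members were selected on the genes detected in each nucleus. A barcode was a member if it held at least 500 genes and 0 UMIs (unique molecular identifiers, each standing for 1 captured RNA molecule) of SLC1A3, GAD2, MKI67 and TOP2A. It also had to hold at least 2 of the 5 genes COL21A1, HSD11B2, COMP, ROR1 and BTBD11, and more genes of that list than of any of 5 lists that mark other GC classes. The rule selected 892 of 32587 barcodes with at least 500 genes, and 16638 of those barcodes met the 0-UMI condition. There were 187 members in the control female, 277 in the control male, 295 in the LPS female and 133 in the LPS male.

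The data are single-nucleus RNA-seq (snRNA-seq) libraries of frozen cerebellum, 1 library per fetus. The controls were 1 female and 1 male fetus at 130 days of gestation that received no intervention. The LPS-exposed fetuses were 1 female at 131 days and 1 male at 133 days, delivered 5 days after 1 mg of lipopolysaccharide (LPS), a bacterial endotoxin, was given into the amniotic fluid as a model of chorioamnionitis. No control received an injection, so the injection and the LPS cannot be told apart, and gestational age differed by 1 to 3 days between the groups.

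GC precursors (GCPs) divide in the external granule layer on the surface of the cerebellum, where sonic hedgehog from Purkinje cells sustains their division. They then leave the cell cycle, commit to a neuronal fate, extend axons and migrate inward along Bergmann glia. The paper uses the netrin receptor DCC and the transcriptional regulator HES6 as markers of this exit and commitment. HSD11B2, the enzyme that inactivates cortisol, is known for its place in proliferating GCPs, which it shields from glucocorticoids.

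The 4 libraries held 34282015 to 61665690 UMIs, and barcodes with at least 500 genes took 38.7% of them in the LPS male, 58.7% in the control male, 73.9% in the control female and 74.1% in the LPS female. The LPS male library therefore stood apart in free RNA, and its barcodes ranked below the nuclei held a median of 467 UMIs against 182 to 283 in the other 3 libraries. Members held a median of 3353 UMIs in the control female, 1652 in the control male, 3160 in the LPS female and 2057 in the LPS male. Sex followed depth in these libraries, and it also followed mitochondrial RNA, since the mitochondrial gene CYTB stood in members at 716 CPM (UMIs of a gene in the summed nuclei of 1 fetus, scaled to the same total in every sum) in the control female and 432 CPM in the LPS female but at 13.5 CPM in the control male and 21.7 CPM in the LPS male. No member barcode was shared between libraries, and Scrublet marked 3, 26, 5 and 3 members as doublets in the control female, control male, LPS female and LPS male.

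The class is labelled as committing GCs, and genes of the GC lineage were read beside that label. The 11 lineage genes measured summed to 9698 to 11614 CPM in members and 11280 to 14258 CPM in the EBF3 RASGEF1B type. They summed to 6458 to 8248 CPM in SLC1A3-rich nuclei, with at least 3 UMIs of SLC1A3, and to 7539 to 9031 CPM in free RNA. The list was thus abundant outside members too, and its level alone does not settle the label. ZIC1, a transcription factor of the GC lineage, stood at 279, 262, 290.3 and 307 CPM in members of the control female, control male, LPS female and LPS male, and PAX6 stood at 245, 614, 272 and 627 CPM in the same order. ATOH1, the factor that specifies GCPs, was nearly undetected, at 9.31, 1.93, 5.30 and 0 CPM. Marker lists of other cells differed in level. The 7 microglial genes measured summed to 7.76 to 19.3 CPM, the 9 fibroblast genes to 34.1 to 129 CPM and the 8 endothelial genes to 18.6 to 99.4 CPM. The endothelial marker CLDN5, the fibroblast marker LUM and the interneuron transporter SLC32A1 were at 0 in members of all 4 fetuses. The sums of those lists therefore came from other genes. The 8 astroglial genes summed to 373, 291 and 364 CPM in the first 3 fetuses and to 785 CPM in the LPS male, against 3182 to 5161 CPM in SLC1A3-rich nuclei and 2281 CPM in the free RNA of the LPS male. The 7 inhibitory neuron genes summed to 42.4 to 58.9 CPM and the 4 unipolar brush cell genes to 41.3 to 273 CPM. The rule excluded nuclei with SLC1A3 or GAD2, and SLC1A3-rich nuclei were chosen by SLC1A3. Low astroglial and inhibitory levels in members were therefore favoured in advance and are no independent check. The 9 oligodendrocyte genes were not low, at 719.8 to 1067 CPM in members, 567 to 746 CPM in the EBF3 RASGEF1B type and 802 to 1247 CPM in SLC1A3-rich nuclei. Most of that sum came from MBP, PDGFRA and VCAN, and PDGFRA is the marker that the paper uses for oligodendrocyte progenitor cells. OLIG1, another gene of the lineage, was at 0 in all 4 fetuses. The Purkinje list is not reported here. The part of other cells in the results was not tested.

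The 5 genes of the membership list describe how members differ among themselves, but they chose the members and no test is drawn from them. COL21A1, which encodes a fibril-associated collagen chain, stood at 405 CPM in the control female, 674 in the control male, 885 in the LPS female and 416 in the LPS male. The highest value came from an LPS-exposed fetus and the lowest from a control, but the other LPS-exposed fetus lay beside the lowest, so the groups overlapped. ROR1, a receptor of the non-canonical Wnt pathway, ranged from 951 CPM in the control male to 1166 CPM in the control female. BTBD11, a protein with ankyrin repeats and a BTB domain, stood at 725 and 809 CPM in the controls and at 563 and 636 CPM in the LPS-exposed fetuses. HSD11B2 stood at 225, 195, 226 and 133 CPM, with the LPS male lowest. COMP, a matrix glycoprotein, stood at 199, 173, 94.3 and 326 CPM, so that the lowest and the highest values both came from LPS-exposed fetuses.

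**Figure D1:**
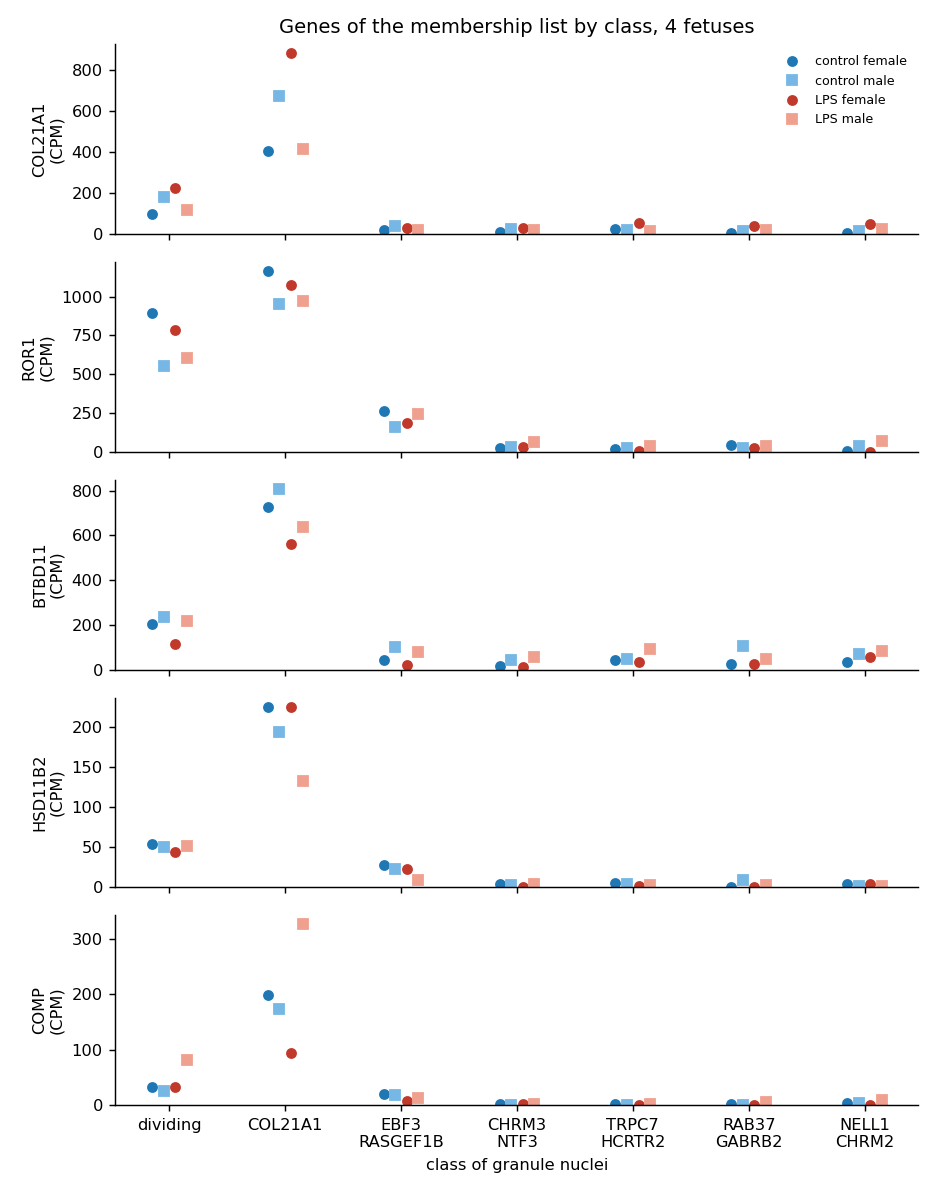
CPM (linear axis from 0) of the 5 genes that chose the members, in 7 classes of nuclei, of which dividing nuclei needed no GC gene. Each point is the summed nuclei of 1 fetus. COL21A1 reaches 405 to 885 CPM in COL21A1-type nuclei and 96.8 to 224 CPM in dividing nuclei, and ROR1 is the gene of the list that dividing nuclei share most, at 554 to 895 CPM.

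Dividing nuclei, which held at least 2 UMIs of MKI67 and TOP2A together, carried the same genes at lower levels. COL21A1 stood there at 96.8, 179, 224 and 116 CPM, and ROR1 at 895, 554, 787 and 603 CPM. The EBF3 RASGEF1B type, called the neighbouring type here, was the largest GC class over the 4 fetuses together. In the LPS male it held 658 nuclei against 934 of the RAB37 GABRB2 type. In the EBF3 RASGEF1B type COL21A1 stood at 17.6 to 40.6 CPM and ROR1 at 158 to 261 CPM. In the NELL1 CHRM2 type the mean of 4 fetuses was 22.4 CPM for COL21A1 and 2.73 CPM for HSD11B2.

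COL21A1 had at least 1 UMI in 65.2% of members of the control female, 70.8% of the control male, 85.1% of the LPS female and 51.1% of the LPS male. In the NELL1 CHRM2 type of the same fetuses, which held a median of 1940.5 to 4770 UMIs, the shares were 2.16%, 3.25%, 12.7% and 3.77%. After each nucleus was thinned to 1000 UMIs, COL21A1 was detected in 33.5%, 50.2%, 53.1% and 30.6% of members, with 5, 26, 5 and 9 shallower members left out. The order of the fetuses was the same at both depths, with the LPS female first and the LPS male last. Of the 892 members, 248 held 2 genes of the list, 350 held 3, 247 held 4 and 47 held all 5.

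Members with 5 list genes were deeper than those with 2, with medians of 4065.5 against 3106 UMIs in the control female, 3882 against 1305 in the control male, 3909.5 against 2770.0 in the LPS female and 2920.0 against 1570.5 in the LPS male, where members with 4 list genes were deeper still, at 3112 UMIs. Genes outside the list were compared between these subsets. DCC stood at 2676, 3400.4, 3610.4 and 4551 CPM in members of the control female with 2, 3, 4 and 5 list genes, but at 1861, 1705, 1812 and 1354 CPM in the control male. It stood at 2773, 3382, 3822 and 3755 CPM in the LPS female and at 2303, 2421, 2028 and 1331 CPM in the LPS male. No order by list genes held in all 4 fetuses, and the values at 5 list genes rest on 20, 5, 14 and 8 nuclei. Nuclei just outside the threshold, with 2 list genes tied with another list, held COL21A1 at 170.3, 429.5, 487 and 301 CPM, while members with 2 list genes, just inside it, held 226, 519, 598 and 332 CPM. The synaptic vesicle gene SYN3 stood at 198, 223, 69.6 and 390.3 CPM just outside and at 66.6, 142, 32.2 and 144 CPM just inside. Most members also held a gene of the EBF3 RASGEF1B list, and only 10, 55, 45 and 30 members of the 4 fetuses held none.

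Against the EBF3 RASGEF1B type, members were described by a fixed fold, with no test, because the lists that define both classes came from these nuclei. Of 9662 genes with at least 10 CPM in either class, 269 (2.78%) were at least 2-fold higher in members in all 4 fetuses, with 5 CPM added to each value, and 106 (1.1%) were at least 2-fold lower. Against dividing nuclei, 23 of 9841 genes (0.234%) were higher and 219 (2.23%) were lower. Across 10502 genes the profile of members correlated with both neighbours to a similar extent, with Pearson's r of 0.90 to 0.92 for the EBF3 RASGEF1B type and 0.91 to 0.92 for dividing nuclei; genes are not independent replicates, and each pair of profiles shares a library.

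The genes that the study names for committing GCs, a list drawn from these same nuclei and therefore not independent, comprised 14 genes, of which 12 were higher in members than in the EBF3 RASGEF1B type, beside 2.78% of all genes, 2 of them members of the selecting list. DCC stood at 3541, 1766, 3481 and 2144 CPM in members against 795, 584, 777 and 534 CPM in the neighbouring type. HES6 stood at 1111, 682, 1582 and 782 CPM against 516, 267, 616 and 264 CPM. Both genes were higher in the female than in the male libraries of either class, yet within each fetus the member value was the higher one. LAMA2, a laminin chain, stood at 1743, 2017, 1470 and 2262 CPM against 527, 607, 265 and 824 CPM. COL25A1, a membrane-bound collagen of neurons, showed the largest mean difference of the 12 among those that the rule did not use, 2.89 ± 0.54 on the log2 scale (SD, n = 4 fetuses). FOXP2 and ITGBL1 did not reach 2-fold, with ratios of 0.74 to 0.96 and 0.38 to 0.68 (log2). Against dividing nuclei only BTBD11, which the rule used, was at least 2-fold higher in all 4 fetuses, beside 0.234% of all genes. The summed level of the list was 11901 to 17253 CPM in members and 7057 to 11261 CPM in dividing nuclei. It was 3376 to 5088 CPM in the EBF3 RASGEF1B type, so these genes were also abundant in nuclei that still divide.

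**Figure D2:**
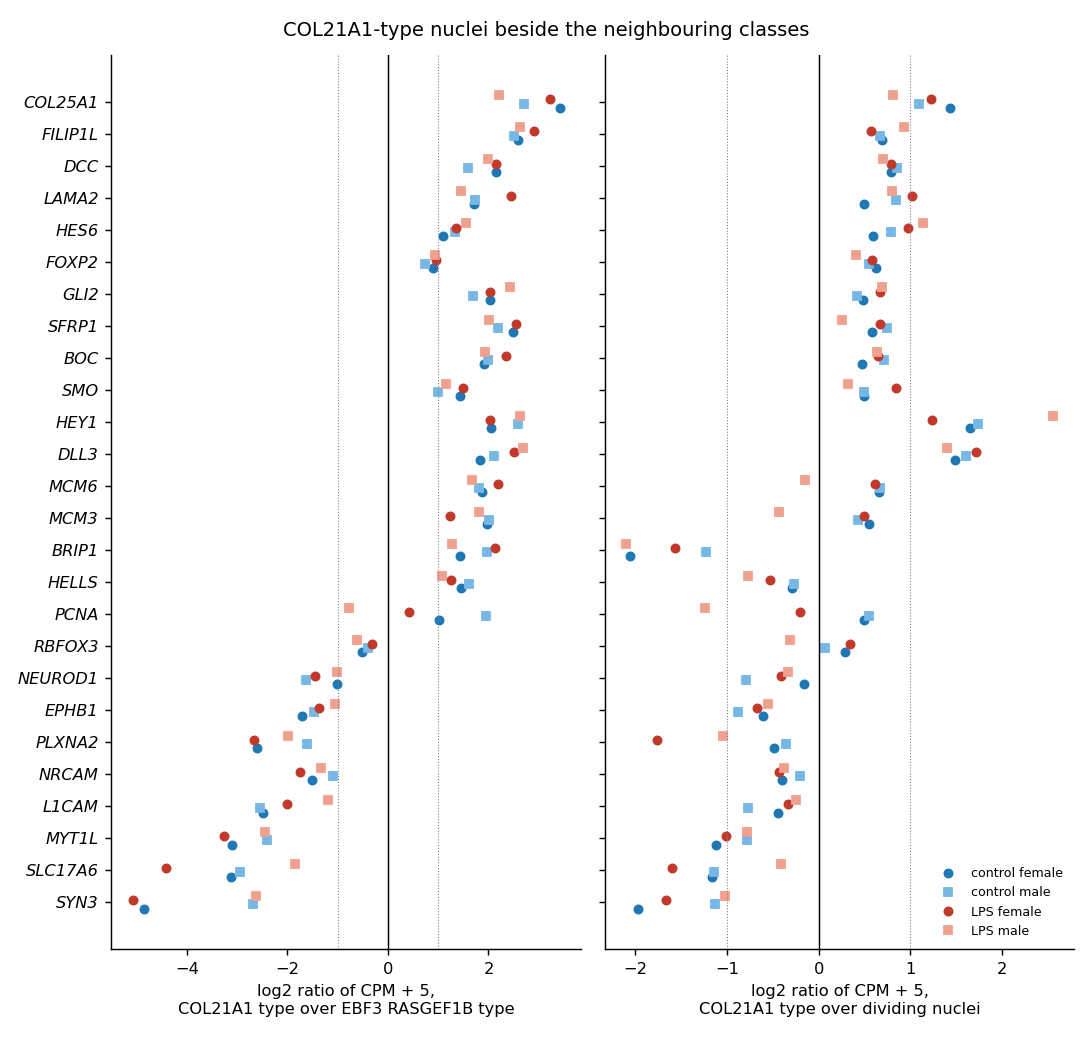
Log2 ratio of CPM + 5 in COL21A1-type nuclei over the EBF3 RASGEF1B type (left) and over dividing nuclei (right); each point is 1 fetus and dotted lines mark 2-fold. DCC lies between 1.59 and 2.16 on the left and between 0.70 and 0.85 on the right, and SYN3 lies between -5.08 and -2.62 on the left.

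Some genes of the hedgehog pathway were higher in members than in the neighbouring type. Of the 10 genes of the hedgehog list with at least 10 CPM, 4 were at least 2-fold higher, beside 2.78% of all genes, 6 were not and none was lower. The median log2 ratio was 1.09 beside 0.17 over all genes. BOC, a co-receptor of sonic hedgehog, stood at 1045, 819, 921 and 732 CPM against 275, 202, 177 and 188 CPM. BOC is also on the committing list drawn from these nuclei, so its place in this count is not independent. The transcription factor GLI2 stood at 236, 537, 202 and 509 CPM in members and had a mean of 88.4 CPM in the neighbouring type. SFRP1, a secreted Wnt antagonist, stood at 217, 117, 287 and 68.3 CPM against a mean of 28.7 CPM. SMO, the signal transducer, had ratios of 0.997 to 1.49 (log2) and so missed 2-fold narrowly in 1 fetus. The target GLI1 was at 6.21 to 12.4 CPM in members and at a mean of 0.476 CPM in the neighbouring type, below the minimum. None of the 10 genes differed 2-fold from dividing nuclei in all 4 fetuses, beside 0.234% of all genes higher and 2.23% lower, a count that does not set the list apart. The summed level of the list was 4126 to 4534 CPM in members, 2918 to 3366 CPM in dividing nuclei and 1782 to 2074 CPM in the neighbouring type.

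Genes of DNA replication remained in members, although nuclei with MKI67 or TOP2A had been excluded. Of 13 S-phase genes with at least 10 CPM, 6 were at least 2-fold higher than in the EBF3 RASGEF1B type and none was lower, beside 2.78% and 1.1% of all genes. The replicative helicase subunit MCM6 stood at 74.5, 86.7, 66.7 and 46.5 CPM in members, and its mean was 14.9 CPM in the neighbouring type and 48.1 CPM in dividing nuclei. Against dividing nuclei the list went the other way, a direction that the exclusion of MKI67 and TOP2A favours. Of 15 genes, 0 were 2-fold higher and 4 were lower, beside 0.234% and 2.23% of all genes, and the median log2 ratio was -0.47. The helicase subunit MCM3, the polymerase subunit POLA1, the chromatin remodeller HELLS, the ubiquitin ligase adaptor DTL and the repair helicase BRIP1 were the other 5 genes. PCNA, the sliding clamp, was not among them, at 24.8, 30.8, 24.4 and 3.10 CPM. Genes of mitosis showed another picture: 0 of 12 G2/M genes differed 2-fold from the neighbouring type and 15 of 15 were lower than in dividing nuclei, a direction that the exclusion of MKI67 and TOP2A favours.

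At 1000 UMIs per nucleus an S-phase gene was detected in 53.8%, 59.8%, 45.5% and 45.2% of members of the control female, control male, LPS female and LPS male. The share was 22.4%, 25.6%, 20.9% and 23.4% in the EBF3 RASGEF1B type and 71.3%, 80.0%, 70.8% and 72.3% in dividing nuclei. Members thus lay between these classes in each fetus. Dividing nuclei were chosen by MKI67 and TOP2A and members by their absence. A lower share in members than in dividing nuclei was therefore favoured in advance. In the NELL1 CHRM2 type, which was typed as a mature GC class, the share was 12.1% to 24.5%. A G2/M gene was detected in 32.4%, 35.9%, 27.2% and 34.7% of members and in 80.8% to 92.6% of dividing nuclei.

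**Figure D3:**
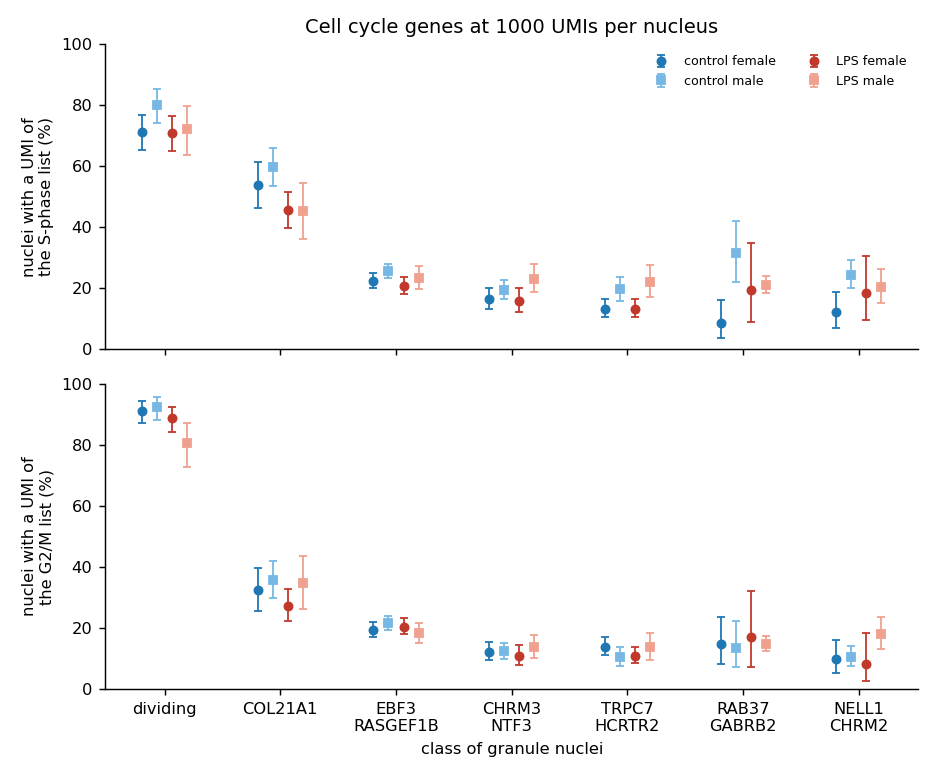
Percentage of nuclei with at least 1 UMI of 15 S-phase genes (top) or 15 G2/M genes (bottom) after thinning each nucleus to 1000 UMIs, by class; points are fetuses and bars are exact 95% binomial intervals, which cover counting error only. COL21A1-type nuclei reach 45.2% to 59.8% for S phase, between the EBF3 RASGEF1B type and dividing nuclei, which were chosen by MKI67 and TOP2A.

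HEY1 and DLL3 were among the genes highest in members relative to the other GC types and dividing nuclei. SLC1A3-rich nuclei were not part of this comparison. HEY1, a transcriptional repressor induced by Notch, stood at 73.0, 90.5, 64.6 and 99.3 CPM in members, against 11.0 to 13.8 CPM in the EBF3 RASGEF1B type and 12.7 to 24.6 CPM in dividing nuclei. DLL3, a Notch ligand that acts within the cell, stood at 79.2, 90.5, 99.6 and 127 CPM, against 13.5 to 18.8 and 24.9 to 45.2 CPM. No value of either gene overlapped between members and these 2 classes. DLL3 had the largest least ratio over the highest of the other GC types and dividing nuclei, 1.40 (log2). It was followed by PQLC3, HEY1, PDGFD, SPNS2, STUM, NTNG2, DMPK, ARHGAP6 and METAP1D, at 1.27 down to 0.99. PDGFD is a platelet-derived growth factor, SPNS2 exports sphingosine-1-phosphate and NTNG2 is a membrane-anchored netrin. In the female libraries HEY1 was also abundant in free RNA, at 57.5 and 86.5 CPM, while DLL3 was at 5.18 to 9.96 CPM in the free RNA of all 4.

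FILIP1L, which is also on the committing list, had the highest least ratio over the EBF3 RASGEF1B type among genes that the rule did not use, at 799, 1030, 816 and 1787 CPM against 129, 177, 105 and 283 CPM. IGFBP5, a binding protein of insulin-like growth factors, stood at 236, 154, 246 and 149 CPM against 18.0 to 46.0 CPM. The serotonin receptor gene HTR1E, the metalloprotease gene ADAMTS6 and the adaptor gene DOCK1 were also among the 15 highest, with KBTBD12, COL25A1, HEY1, SFRP1, TTC23, NEDD4, SPNS2, ABCA8, HYDIN and TEX9, and the least ratio of these 15 genes was 1.92 (log2).

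The 10 genes lowest in members relative to the neighbouring type were taken by their ratio alone. SYN3 stood at 29.5, 123, 29.7 and 143 CPM against 985, 825, 1164 and 905 CPM. MYT1L, a factor that maintains neuronal identity, stood at 41.9, 75.1, 27.5 and 93.1 CPM against 306 to 532 CPM. SLC17A6, the vesicular glutamate transporter of young GCs, stood at 24.8, 17.3, 9.53 and 52.7 CPM against 167 to 304 CPM. For SYN3 the male members were several times above the female members, and SYN3 was likewise higher in the free RNA of the male libraries, at 441 and 401 CPM against 129 and 79.0 CPM; the part of free RNA in this difference was not tested. MYT1, RPS6KL1, PRIMA1, ARHGAP23, HECW1, TIMP3 and GPRIN3 completed the 10 genes. Of the 15 genes of the later GC list with at least 10 CPM, 0 were 2-fold higher or lower in all 4 fetuses, beside 2.78% and 1.1% of all genes, a count that does not set the list apart, and their median log2 ratio was -0.49.

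Among 12 factors of commitment with at least 10 CPM, HES6 was higher and 2 were lower, beside 2.78% and 1.1% of all genes. HES6 is also on the committing list, so its place in this count is not independent. NEUROD1, which drives GC differentiation, stood at 188, 48.2, 153 and 96.2 CPM against a mean of 293 CPM, and NHLH2 at 45.0, 21.2, 36.0 and 21.7 CPM against a mean of 91.6 CPM. NFIA, a factor of the lineage list, had ratios from -0.12 to 0.07 (log2), and RBFOX3, the NeuN antigen, from -0.62 to -0.31.

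Of 19 matrix genes 7 were higher and 1 was lower, beside 2.78% and 1.1% of all genes. Those that are also on the committing list, LAMA2 and COL4A5 among them, are not independent of it. The higher ones included the basement membrane collagens COL4A5 and COL4A6, the laminin chains LAMA2 and LAMC1, and ITGA6, a laminin receptor subunit, at 102, 166, 95.3 and 58.9 CPM against a mean of 20.9 CPM. SPOCK1, a testican proteoglycan, was the lower one, at 179 to 397 CPM against a mean of 703 CPM. Of 21 axon guidance genes, DCC and the netrin receptor gene UNC5D were higher and 2 were lower. DCC is likewise on the committing list. PLXNA2, a semaphorin receptor, stood at 27.9, 69.3, 24.4 and 68.3 CPM against a mean of 221 CPM, and EPHB1, an ephrin receptor, at 188, 254, 196 and 490.2 CPM against 723 CPM. Of 16 migration genes none was higher, and the adhesion genes NRCAM and L1CAM were lower, with a median log2 ratio of -0.98 over the list. DCX, which binds microtubules in migrating neurons, had ratios of -0.92 to -0.18.

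Partners of the list genes were compared by the same criterion. Of 5 glucocorticoid genes with at least 10 CPM and 11 genes of the ROR and non-canonical Wnt list, none was 2-fold higher or lower than in the EBF3 RASGEF1B type in all 4 fetuses, beside 2.78% and 1.1% of all genes, which does not set these lists apart. The glucocorticoid receptor NR3C1 stood at 65.2, 75.1, 128 and 164 CPM in members and at means of 120.0 and 481 CPM in the EBF3 RASGEF1B and NELL1 CHRM2 types. WNT5A, the ligand of ROR1, stood at 34.2, 52.0, 78.4 and 40.3 CPM against a mean of 16.6 CPM, and the paralogue ROR2 at 6.21, 23.1, 19.1 and 0 CPM.

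The genes whose level was most like that of COL21A1 over 28 values (7 classes in 4 fetuses) included CHRNA1, the muscle-type acetylcholine receptor subunit, with Pearson's r of 0.94, GNG12 with 0.90, and STARD13 and DARS with 0.89. CHRNA1 stood at 38.8, 25.0, 47.7 and 40.3 CPM in members and at 0.626 to 4.66 CPM in the EBF3 RASGEF1B type. COL21A1 helped to choose the members, so a high correlation was favoured in advance for genes that are high in members. These correlations are descriptions, and the points share libraries.

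The first question on LPS was whether the class took another share of the granule nuclei. The typed granule nuclei counted here include dividing nuclei, of which no GC gene was required. Members were 6.46% of the typed granule nuclei of the control female (exact 95% interval 5.59% to 7.42%), 7.58% of the control male (6.74% to 8.48%), 11.6% of the LPS female (10.4% to 12.9%) and 4.64% of the LPS male (3.902% to 5.48%). The LPS-exposed fetuses held the highest and the lowest share. The mean was 7.02% ± 0.790 in controls and 8.13% ± 4.94 in LPS-exposed fetuses (SD, n = 2 each), with a two-sided exact permutation p of 1. The log2 fold difference was 0.21 (SE 0.60, edgeR adjusted p = 0.981). Without the LPS female it was -0.60, and without the LPS male 0.73 (edgeR adjusted p = 0.486 and 0.438). With 2 fetuses in a group the permutation test cannot go below 0.3333. Without nuclei that held markers of other cells, 55, 184, 74 and 69 members were left and the shares were 4.53%, 6.39%, 7.58% and 4.498%, so that the LPS male and the control female were level. The LPS male also held 934 of the 1164 RAB37 GABRB2 nuclei of the series, which lowers the share of every other class in that library; counted over all barcodes with 500 genes, the shares were 2.02%, 3.21%, 4.27% and 1.70%.

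**Figure D4:**
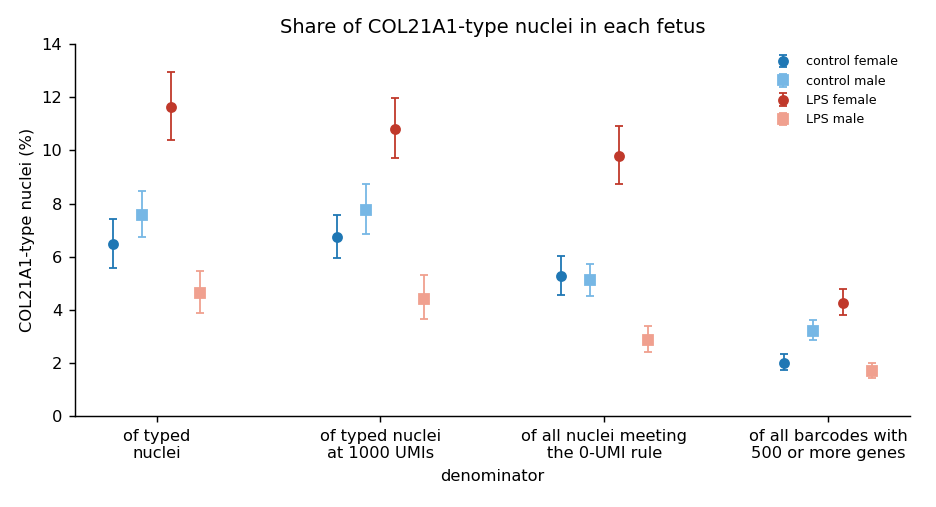
Share of COL21A1-type nuclei (%) in each fetus over 4 denominators; points are fetuses and bars are exact 95% binomial intervals, which cover counting error only. Of typed nuclei the LPS female lies highest at 11.6% and the LPS male lowest at 4.64%, on either side of both controls, and at 1000 UMIs per nucleus the values are 10.8% and 4.42%.

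The second question was whether genes changed within members after LPS. UMIs were summed over the members of each fetus and tested with edgeR. Of 8120 genes, 0 (0%) were called at an adjusted p under 0.1 and a log2 fold change over 0.25, and DESeq2 also called 0. At an unadjusted p under 0.05 there were 49 genes by edgeR, 33 of them higher after LPS, and 40 by DESeq2. Both counts are under a share of 0.05 of the 8120 genes, the share that this level would pass with no difference. They therefore do not set these genes apart. Without the LPS female 70 genes were called and without the LPS male 21, so that the count depends on which LPS-exposed fetus is set against the controls. Each of these fits sets 1 fetus of 1 sex against both sexes. The genes called without the LPS male included the Y-linked genes USP9Y, DDX3Y and UTY, and those called without the LPS female included the mitochondrial genes MT-CO1, MT-ND5 and CYTB. Values of both LPS-exposed fetuses lay above both controls for 8.67% of genes and below both for 12.2%.

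The genes with the lowest p had groups that did not overlap, but none passed the adjustment. TRPM3, a cation channel, stood at 267 and 241 CPM in controls and at 563 and 617 CPM in LPS-exposed fetuses, a log2 difference of 1.25 (SE 0.32, edgeR adjusted p = 1.00). In free RNA it stood at 386, 902, 272 and 1513 CPM in the control female, control male, LPS female and LPS male, and in the EBF3 RASGEF1B type at 90.9, 204, 91.8 and 503 CPM. RBFOX1, a splicing factor of maturing neurons, stood at 292 and 545 CPM against 944 and 2072 CPM (log2 difference 1.89, SE 0.52, edgeR adjusted p = 1.00), and it was the only gene called when sex was added as a block (edgeR adjusted p = 0.0759). Its log2 difference was 1.23 without the LPS male. In free RNA, RBFOX1 stood at 870.4, 1947, 417 and 5246 CPM in the same order. For both genes free RNA was highest in the LPS male, next in the control male and lowest in the LPS female, and its part in the difference was not tested. FAU, SLC24A2, ANO4, CCDC130 and OPCML were the other 5 genes with higher values. CLSTN2 would rank among them, but it is on the list of the CHRM3 NTF3 type that the membership rule used, so its difference is not given as a result.

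KCNG2, a modifier subunit of potassium channels, had the lowest p among genes with lower values, at 189 and 239 CPM in controls and 84.8 and 90.0 CPM in LPS-exposed fetuses (log2 difference -1.25, SE 0.32, edgeR adjusted p = 1.00). In the EBF3 RASGEF1B type its log2 difference was -0.95. KNTC1, a kinetochore protein, stood at 73.0 and 90.5 CPM against 33.9 and 24.8 CPM (log2 difference -1.39, SE 0.42, edgeR adjusted p = 1.00), and typed and summed at 1000 UMIs per nucleus its log2 difference was -0.29. NTSR1, a neurotensin receptor, stood at 143 and 277 CPM against 99.6 and 40.3 CPM. FPGS, CPAMD8, ARMH1, SFMBT2 and CCDC77 were the other 5 genes.

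**Figure D5:**
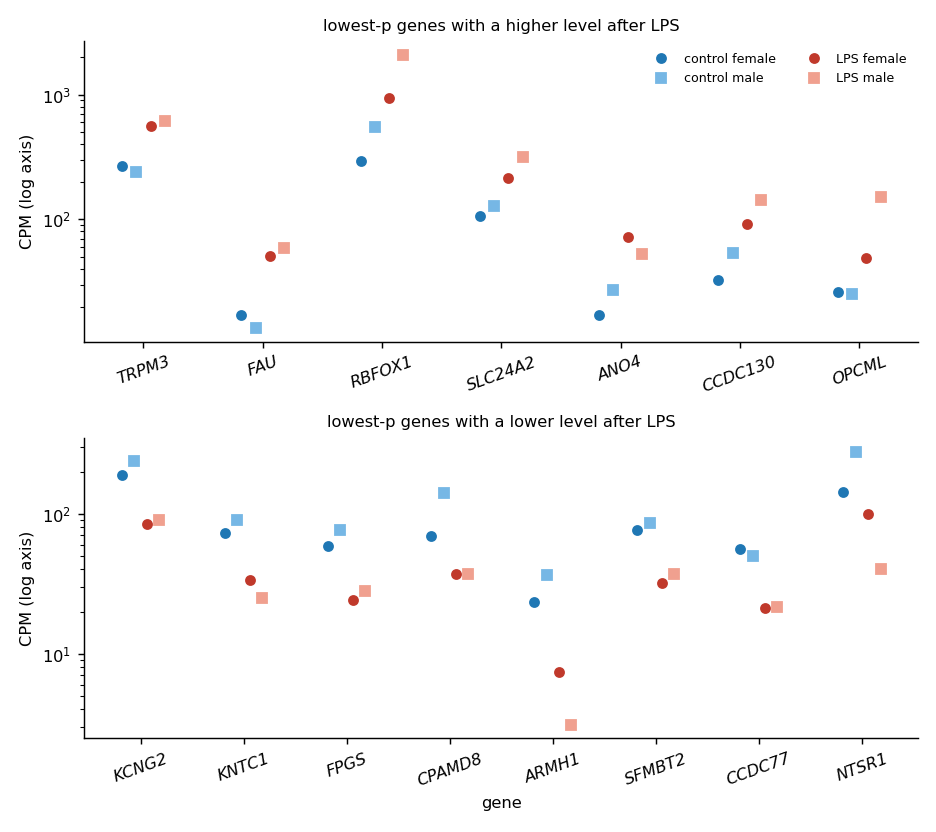
CPM (log axis) in COL21A1-type nuclei of the genes with the lowest p in each direction, 7 higher after LPS (top) and 8 lower (bottom), without CLSTN2, which the membership rule used; each point is 1 fetus. RBFOX1 reaches 944 and 2072 CPM in the LPS-exposed fetuses against 292 and 545 CPM in the controls, and none of the genes shown passes the adjustment over 8120 genes.

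The S-phase genes of members were compared as a list, and none was shown to change after LPS. Of 12 tested, 0 were called, 8 lay below both controls beside 12.2% of all genes, 1 lay above both beside 8.67%, and the median log2 difference was -0.57 beside 0.01 over all genes. MCM3 stood at 41.9 and 61.6 CPM in controls and 26.5 and 27.9 CPM in LPS-exposed fetuses, and MCM4 at 55.9 and 67.4 CPM against 36.0 and 24.8 CPM, while DTL lay the other way, at 51.2 and 44.3 CPM against 53.0 and 58.9 CPM. The summed level of the list was 976 and 1292 CPM in controls and 913 and 769 CPM in LPS-exposed fetuses. When members were typed and summed at 1000 UMIs per nucleus, 2 of 9 genes lay below both controls, beside 726 of all 5604 genes. The median log2 difference of the 9 genes was -0.11. The sums of the list overlapped, at 1110 and 1498 CPM against 1128 and 1108 CPM. The share of members with an S-phase gene at 1000 UMIs was 56.8% ± 4.18 in controls and 45.3% ± 0.252 in LPS-exposed fetuses (SD, n = 2 each, two-sided exact permutation p = 0.3333, the smallest possible). In the EBF3 RASGEF1B type 5 of 13 S-phase genes lay below both controls and in dividing nuclei 4 of 15, beside 8.64% and 10.1% of all genes there. Dividing nuclei summed to 1802 and 2093 CPM in controls and 1656 and 1575 CPM in LPS-exposed fetuses, and the EBF3 RASGEF1B type to 310 and 429 CPM against 299 and 331 CPM.

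Lists on hormone and immune responses held few measurable genes, and their counts stand beside 8.67% of all genes above both controls and 12.2% below. NR3C1 and the mineralocorticoid receptor NR3C2 lay above both controls in LPS-exposed members, NR3C1 with a log2 difference of 1.09 that was not called, and their target FKBP5 lay below, at 43.5 and 53.9 CPM against 41.3 and 24.8 CPM. Of 22 immune genes, 2 were tested: NFKB1, a subunit of NF-kB, stood at 49.7 and 65.5 CPM against 99.6 and 86.9 CPM, and STAT3 overlapped. Of 9 hedgehog genes tested, none was called and only SMO lay on one side, below, beside 12.2% of all genes, at 306 and 275 CPM in controls and 253 and 254 CPM in LPS-exposed fetuses. Of 14 genes of the committing list, BTBD11 alone did not overlap, also below both controls, and it chose the members.

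The third question was whether LPS acted differently on members than on the EBF3 RASGEF1B type of the same fetuses. By edgeR, with the fetus as a block, 0 of 10726 genes (0%) were called, 254 had an unadjusted p under 0.05, and DESeq2 called 0 with 40 at that level. Both unadjusted counts are again under a share of 0.05 of the genes tested. Without the LPS male 57 genes were called, without either control 6, and without the LPS female only CDH4. SOX6, a transcription factor of neural progenitors, had the lowest p: it stood at 77.6 and 34.7 CPM in members of controls and 118 and 96.2 CPM in members of LPS-exposed fetuses, while the neighbouring type went from 96.1 and 63.9 CPM to 40.7 and 60.8 CPM (log2 difference of the effects 1.71, SE 0.31, edgeR adjusted p = 0.373). OPCML, ELN and PLD5 followed in that direction (edgeR adjusted p = 0.373 to 1.00), and GFRA1, ENSMMUG00000047344, SPP1 and CYTB were among those in the other (edgeR adjusted p = 1.00). CLSTN2 also lay in the direction of SOX6 and is given no test here, since a list of the membership rule holds it. ELN rested on 3, 1, 18 and 5 UMIs in members. SOX6 was called when membership needed 3 list genes (edgeR adjusted p = 0.00835) and with no filter on low counts, but not by DESeq2. Its log2 difference was 1.99 without the control female, 1.53 without the control male, 1.21 without the LPS female and 1.99 without the LPS male. SOX6 rested on 50, 18, 111 and 31 UMIs in members of the control female, control male, LPS female and LPS male. In free RNA it stood at 176, 235, 133 and 164 CPM in the same order, above members in each fetus. The part of free RNA was not tested.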

How the data were processed

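The authors deposited raw UMI counts for every barcode of 1 single-nucleus library per fetus, made with Cell Ranger (version 4 per the file headers, 5.0 per the labels) against Mmul_8.0.1 with introns included; free RNA had not been removed from them. Libraries held 34282015 to 61665690 UMIs. Barcodes were typed by the gene lists named in the report. Their UMIs were summed per fetus, because nuclei are not replicates, and the sums were tested with edgeR's quasi-likelihood test (4.0.16, R 4.3.3; filterByExpr, TMM, Benjamini-Hochberg), with DESeq2 1.42.0 as an alternative; the scripts were tested on simulated data. Classes of nuclei were compared by fold alone. Intervals are exact binomial and cover counting error only. The Scrublet (scanpy 1.11.5) threshold failed in the LPS male, where the median of the other 3 libraries was used. Replicate numbers were given in accession order and pair no samples. The edgeR p-values set a difference against a spread estimated from 2 fetuses a group with information shared across genes. Where the fetus is a block, differences between fetuses are removed first. The 17 list genes without a row were not analysed here. Genes were named by rule: the lists, the largest and lowest least ratios, the lowest p in each direction and the closest patterns to COL21A1; CDH4, the Notch grouping and the named Y-linked and mitochondrial genes were chosen after their values were seen. Some genes that the rule selects are not reported here. The members and lists were chosen with earlier results of these data known.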

Additional observations from a re-analysis of the deposited data

Results flagged for a closer look

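In 5 measures the female and the male LPS-exposed fetus moved in opposite directions from the control of the same sex, and with 1 fetus per sex and condition none of these differences was tested. The share of COL21A1-type nuclei among typed granule nuclei was 5.16 percentage points higher after LPS in the female and -2.93 points in the male. On the log2 scale of LPS over control, COL21A1 was 1.12 in females and -0.69 in males, COMP was -1.04 and 0.89, HSD11B2 was 0.0035 and -0.53, and ROR1 was -0.11 and 0.034. The values of ROR1 and the female value of HSD11B2 are close to 0. COL21A1, COMP, HSD11B2 and ROR1 belong to the list that chose the members. Depth and mitochondrial RNA also differed between female and male libraries, and their part was not tested.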

How the results depend on the processing

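Of 389 alternatives, 38 on the main results and 306 on the named genes were labelled the same. For the share and the named genes this means the same direction and side of the threshold. For the other main results it means a count equal to the main count or within 1.5 times of it. Another 15 main alternatives moved further and 1 reversed. Among the named genes 18 alternatives crossed the threshold and 11 changed sign. The named genes include the 5 of the membership list and CLSTN2. The membership rule used these genes, so their labels and sign changes only describe the fits and are no check of a result. LPS against control called 9 genes with no filter on low counts (TTR, HTR2C, CAMK4, PLCL1, RBFOX1, SLC39A12, PTGER3 and SCN2A higher, HTR1F lower), 1 with a sex block and 0 to 70 with 1 fetus left out (70 without the LPS female, 21 without the LPS male); TTR, a choroid plexus gene, had 8, 0, 408 and 2 UMIs in members and 4645 CPM in the free RNA of the LPS female. The effect against the neighbouring type called 9 genes with no filter, 1 with 3 list genes, and 1 to 57 with 1 fetus left out (6 without either control, 1 without the LPS female, 57 without the LPS male). The share difference ran from -0.60 to 0.73 (log2) with 1 fetus left out. Without nuclei that held markers of other cells, 2 of 5 S-phase genes tested lay below both controls, beside 568 of all 4469 genes. The sums of the list overlapped there, at 854 and 1351 CPM in controls and 729 and 952 CPM in LPS-exposed fetuses. At 1000 UMIs per nucleus 2 of 9 S-phase genes tested lay below both controls, beside 726 of all 5604 genes. With 20 CPM added, 114 genes were higher and 64 lower than in the neighbouring type, all among those of the report, since a larger constant can only shrink a ratio. Typed and summed at 1000 UMIs per nucleus, 212 were higher, 152 of them among the 269 of the report. At that depth 133 were lower, 84 of them among the 106 of the report. With 3 list genes, 211 of the 269 and 88 of the 106 were kept. With 1 fetus left out 124 to 189 were lower (189 without the LPS male). Differences that changed sign were CCDC77 at 1000 UMIs per nucleus (0.15), COL21A1 with 1 fetus left out (-0.35 to 0.77), COMP with a sex block (-0.058) and 1 fetus left out (-0.94 to 0.82), HSD11B2 with 1 fetus left out (-0.64 to 0.15), and ROR1 with 3 list genes (0.021), without nuclei with other markers (0.084), with 1000 genes per nucleus (0.0057), at 1000 UMIs (0.086) and with 1 fetus left out (-0.19 to 0.20, and 0.067 without the LPS male). Other named genes that moved by over 1.5 times were KNTC1 (-0.29), OPCML (0.73) and NTSR1 (-2.36) at 1000 UMIs, SFMBT2 without nuclei with other markers (-0.15), OPCML (2.56), ARMH1 (-3.14) and NTSR1 (-2.34) without the LPS female, and RBFOX1 (1.23) and OPCML (0.96) without the LPS male. Effects against the neighbouring type that moved as much were SOX6 with 3 list genes (2.86), ELN (4.05), SPP1 (-5.78) and ENSMMUG00000047344 (-1.10) without the LPS female, and ELN without the LPS male (6.17). The cause was not tested. In fits that leave out 1 fetus the lone fetus is assumed to vary like the others. The alternatives at 1000 UMIs, those on S-phase genes and those on the fold against the neighbouring type were chosen after seeing the data.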
